A study of Mus musculus with 10 samples.

Results

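Expression of 9 Wnt ligand genes (Wnt3, Wnt4, Wnt5a, Wnt5b, Wnt6, Wnt9b, Wnt10a, Wnt11 and Wnt16) and of the receptor gene Ror2 was examined in the developing secondary palate of the mouse. The genes were taken by symbol: every probe set that the platform annotation ties to exactly 1 of these symbols was kept, which gave 18 of 45101 probe sets and 10 of 18194 genes. Of the 10 genes, 4 had 1 probe set and 6 had several. All 18 were measured and none was removed for a low value.

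Wnt ligands are secreted, lipid-modified proteins that signal over short distances between neighbouring tissues. Bound to a Frizzled receptor and the coreceptor Lrp5 or Lrp6 they stabilise beta-catenin, which acts with Tcf and Lef factors on target genes, whereas Wnt5a and Wnt11 are best known for beta-catenin-independent signalling that orients and moves cells, for which Ror2 is a receptor of Wnt5a. In the palate Wnt5a and Ror2 belong to the mesenchyme, several other ligands are made by the oral and nasal epithelium, and loss of Wnt5a or of Wnt9b causes clefts in mice.

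RNA of the secondary palate was hybridised to an Affymetrix mouse array at E14.5, an embryonic stage when the palatal shelves fuse, with 1 array for each sample. The 5 mutant samples carried Tgfbr2fl/fl;Wnt1-Cre, in which the Wnt1 driver expresses Cre in the neural crest and so removes Tgfbr2, the type II TGF-beta receptor gene, from the palatal mesenchyme. Epithelium, skeletal muscle and vessel endothelium do not come from the neural crest and keep the gene. The 5 control samples carried Tgfbr2fl/fl without Cre and are called wildtype in their titles, and all 10 samples shared the floxed alleles and the strain C57B6. The sex of the embryos is given as not determined, and nothing in the labels states that samples with different numbers came from different embryos or litters, so the p-values cover only the spread among the samples given.

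The series asks which genes TGF-beta regulates as the palate forms. Values are log2 values from RMA with 1 decimal, between 2.2 and 14.3, so 0.1 is the smallest step and ties are common. The brightest Tgfbr2 probe set was 10.7 or 10.8 in mutants and 10.5 to 10.8 in controls, and the 3 Tgfbr2 probe sets changed by -0.08 to 0.08. No source used here places them relative to the floxed part, so they do not check the deletion. Wnt1, whose promoter drives the Cre, was 4.1 to 4.4 in mutants and 3.9 to 4.2 in controls and was not called. Control replicate 1 stood apart, with gene-level correlations to the other arrays of 0.985 to 0.989, against 0.989 to 0.996 among the other 9. The 12 epithelial markers read at least 8.3 in every array, and the 10 measured mesenchymal markers ranged from one that read 5.4 at its lowest to Col3a1, which read at least 13.5. None of either list was called. In contrast, 7 of 10 skeletal muscle markers were lower in mutants (median change -1.79) and 4 of 5 markers of multiciliated cells were higher (median 0.88). In tissue of mixed cells, fewer cells of a type and less RNA per cell cannot be told apart.

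Of the 10 genes, Wnt11 rose and Wnt5b fell in mutants, each by 0.32 on the log2 scale, or 1.25-fold, and 8 did not pass the test. The test was limma on each gene's brightest probe set, adjusted over all 18194 genes, with an adjusted p under 0.05 as the threshold. By the same test 8.26% of all genes changed, 2.90% upward and 5.36% downward, the share to set beside the 2 of 10. Without control replicate 1 the call of Wnt11 held and 1 of 10 genes was called, against 9.88% of all genes. When every probe set was tested instead, 1 of 18 passed, that of Wnt11, against 3.25% of all probe sets (1.08% upward). In none of the 18 probe sets were the mutant and control arrays fully separate, whereas the groups did not overlap in 4.86% of all probe sets. On the brightest probe sets the 95% confidence intervals of all 10 genes lay between -0.52 and 0.48. None of these reached a 1.5-fold change in either direction. Among the 18 probe sets 2 intervals did reach it, those of Ror2 1457128_at (-0.08 to 1.40) and Wnt6 1435980_x_at (-0.62 to -0.02).

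**Figure D1:**
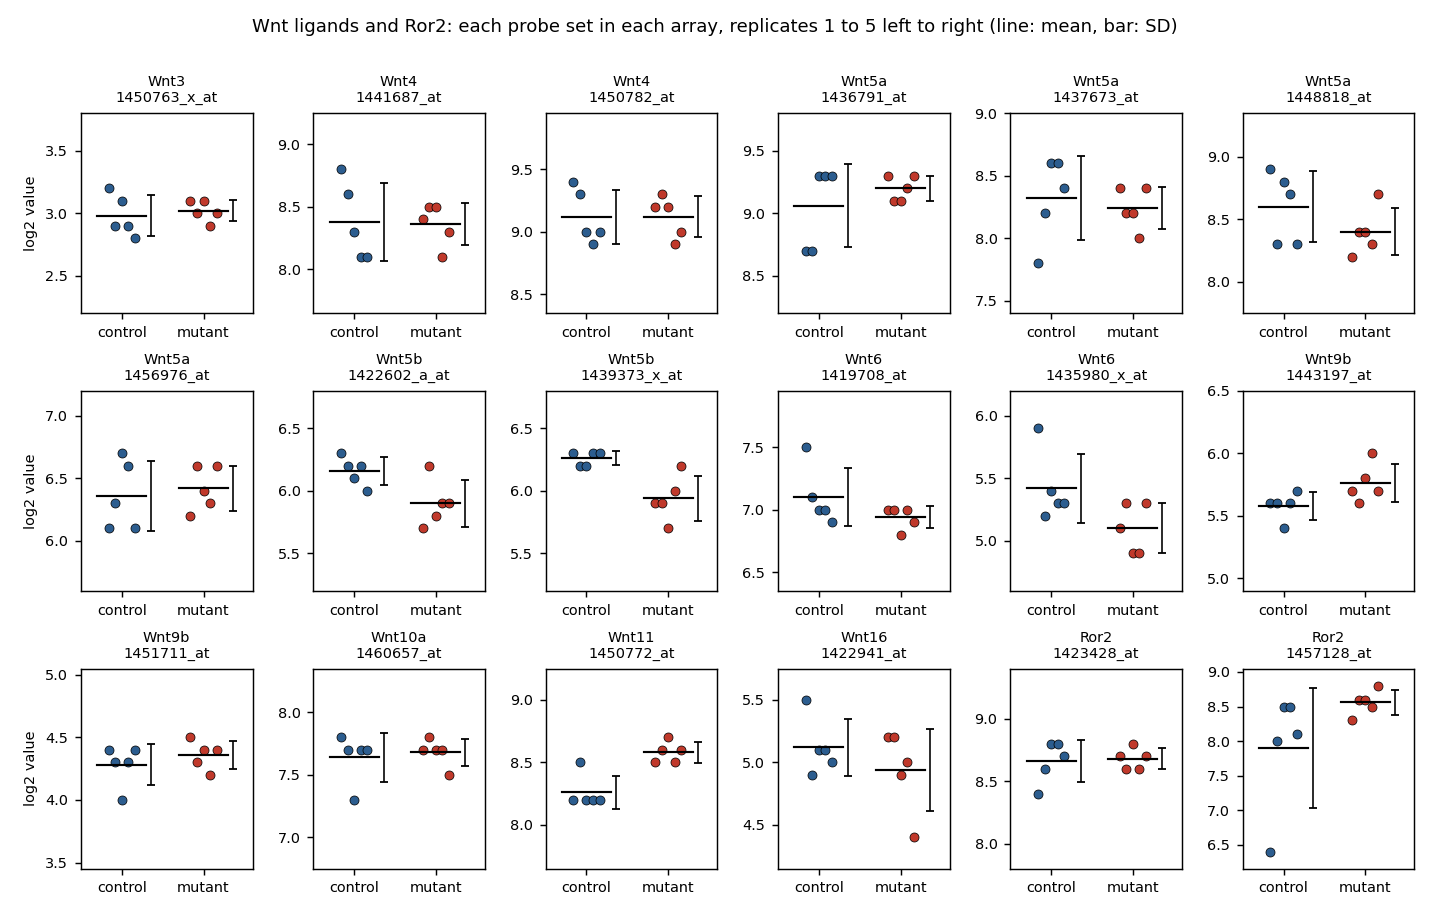
Log2 values of the 18 probe sets of the 9 Wnt ligand genes and Ror2 in each of 5 control (blue) and 5 mutant (red) arrays, with the mean as a line and the SD as a bar. Each panel has its own axis range. Wnt11 was 8.5 to 8.7 in mutants and 8.2 in 4 of 5 controls, and the second Ror2 probe set was 6.4 in control replicate 1.

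Wnt11, a ligand of polarity signalling that is expressed around palatal fusion, was the only gene with a call both per gene and per probe set. Its probe set 1450772_at read 8.5, 8.6, 8.7, 8.5 and 8.6 in mutant replicates 1 to 5, and 8.2, 8.5, 8.2, 8.2 and 8.2 in control replicates 1 to 5. Control replicate 2 alone reached the mutant range, and the other 4 controls lay below every mutant. The means were 8.58 ± 0.08 and 8.26 ± 0.13 (SD, n = 5 each), a difference of 0.32 (SE 0.07, 95% interval 0.16 to 0.48, limma adjusted p = 0.0244 over genes and 0.0455 over probe sets). The gene-level call was lost without mutant replicates 2, 3 or 5 or control replicates 3 or 5 (adjusted p = 0.0535, 0.0639, 0.0535, 0.0595 and 0.0532), with differences of 0.29 to 0.32. Without control replicate 2 it was 0.38 (adjusted p = 0.00542). The call over probe sets held without control replicate 2 (adjusted p = 0.0133), and was lost when any 1 of the other 9 arrays was left out (adjusted p between 0.0527 and 0.112).

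Wnt5b, a close relative of Wnt5a known from cartilage growth plates, was the gene that fell. Its brightest probe set, 1439373_x_at, read 5.9, 5.9, 5.7, 6.0 and 6.2 in mutants, and 6.3, 6.2, 6.2, 6.3 and 6.3 in controls. Mutant replicate 5 met the lowest controls at 6.2 and the other 4 mutants lay below all controls. The means were 5.94 ± 0.18 and 6.26 ± 0.05, a difference of -0.32 (SE 0.08, 95% interval -0.50 to -0.14, limma adjusted p = 0.0373 over genes), but over all probe sets the adjusted p was 0.0667. The other probe set, 1422602_a_at, read 5.7, 6.2, 5.8, 5.9 and 5.9 in mutants and 6.3, 6.2, 6.1, 6.2 and 6.0 in controls, a difference of -0.26 (limma adjusted p = 0.160 over probe sets). The ending _x_at marks probe sets some of whose probes can bind other transcripts. The gene-level call was lost when any 1 array other than mutant replicate 5 was left out (adjusted p between 0.0503 and 0.0808), while the difference stayed between -0.39 and -0.26. It was also lost with the Y-linked gene Eif2s3y as a covariate (-0.29, adjusted p = 0.112).

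Promoter windows were searched for short motifs, and a stretch is printed only where a window held the motif CTTTGATC. Both printed windows belong to the 2 called genes, and the other windows of these genes held no such match. The RefSeq promoter table (GRCm38.p6) held windows of 300 bases, 250 before and 50 after a start, for 8 of the 10 genes, 11 windows in all. Wnt5a and Wnt10a had no window and were not searched. Both strands were searched for letters bound by Tcf/Lef factors (CTTTGATC, its part CTTTGA and its core CTTTG) and by SMAD proteins (CAGAC, its part AGAC, and the palindrome GTCTAGAC), and for TATAA and the GC box GGGCGG. CTTTGATC was found in 2 of the 11 windows, 1 of the 3 of Wnt5b and 1 of the 2 of Wnt11, and in 0.938% of all 32851 windows. The stretch from 160 to 41 bases before the start is printed 5′ to 3′ along the gene, with the match in capitals. That of Wnt5b lies at chr6:119449427-119449546 on the minus strand, before the most downstream of its 3 starts, with the match beginning 71 bases before the start. That of Wnt11 lies at chr7:98834952-98835071 on the plus strand, with the match 52 bases before the start and on the opposite strand, so that it reads GATCAAAG.
Wnt5b: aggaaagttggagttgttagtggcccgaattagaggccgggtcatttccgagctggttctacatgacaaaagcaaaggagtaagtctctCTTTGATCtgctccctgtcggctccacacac
Wnt11: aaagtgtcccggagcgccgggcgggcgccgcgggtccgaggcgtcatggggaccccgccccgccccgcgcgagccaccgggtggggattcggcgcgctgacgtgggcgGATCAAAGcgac

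Of the other letters, CTTTGA was in the same 2 windows (16% of all windows), CTTTG in 6 (53.9%), CAGAC in 5 (49.6%), AGAC in 7 (88%), GTCTAGAC in 0 (0.213%), TATAA in 1 (24.9%) and GGGCGG in 9 (35.7%). These matches describe the letters only, and the motifs overlap each other as given. The motifs were chosen after the values were seen.

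Wnt5a, the mesenchymal ligand whose loss clefts the palate, was not called on any of its 4 probe sets, and these did not move together. The brightest, 1436791_at, read 9.3, 9.1, 9.1, 9.2 and 9.3 in mutants and 8.7, 8.7, 9.3, 9.3 and 9.3 in controls, so control replicates 1 and 2 lay below every other array. Its difference was 0.14 (SE 0.13, 95% interval -0.15 to 0.43, limma adjusted p = 0.554 over genes), and 0.05 without control replicate 1 or without control replicate 2. The probe set 1437673_at read 8.0 to 8.4 in mutants and 7.8 to 8.6 in controls (difference -0.08), with control replicate 1 again the lowest. By contrast, 1448818_at read 8.2 to 8.7 in mutants and 8.3 to 8.9 in controls (difference -0.20), with control replicate 1 the highest. The dimmest, 1456976_at, read 6.2 to 6.6 and 6.1 to 6.7 (difference 0.06). The mean over the 4 probe sets changed by -0.02 (limma adjusted p = 0.923 over genes).

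Ror2, the receptor tyrosine kinase that binds Wnt5a, was nearly level on its brightest probe set. On 1423428_at it read 8.7, 8.6, 8.8, 8.6 and 8.7 in mutants and 8.4, 8.6, 8.8, 8.8 and 8.7 in controls, a difference of 0.02 (SE 0.08, 95% interval -0.16 to 0.20, limma adjusted p = 0.898 over genes), or -0.05 without control replicate 1. The second probe set, 1457128_at, read 8.3, 8.6, 8.6, 8.5 and 8.8 in mutants and 6.4, 8.0, 8.5, 8.5 and 8.1 in controls. Its difference of 0.66 (SE 0.34, 95% interval -0.08 to 1.40, limma adjusted p = 0.308 over probe sets) rested largely on control replicate 1, and was 0.29 without that array (adjusted p = 0.229).

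Wnt16, a ligand studied in bone and joints, was dim and variable. It read 5.2, 5.2, 4.9, 5.0 and 4.4 in mutants and 5.5, 4.9, 5.1, 5.1 and 5.0 in controls, with the lowest value in a mutant and the highest in control replicate 1. The difference was -0.18 (SE 0.15, 95% interval -0.52 to 0.16, limma adjusted p = 0.506), -0.09 without control replicate 1 and -0.05 without mutant replicate 5.

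**Figure D2:**
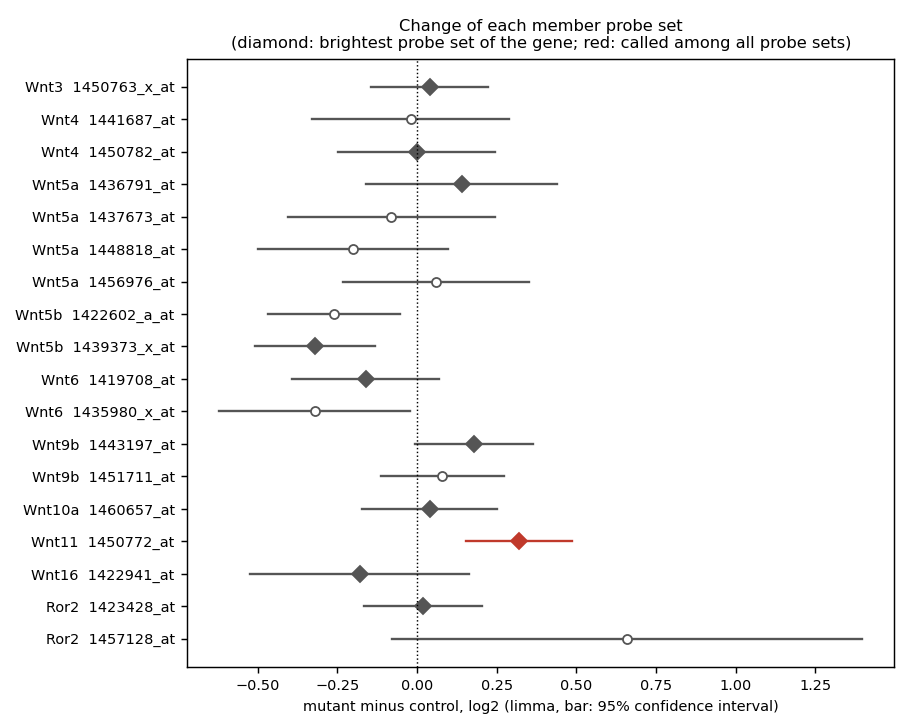
Mutant minus control difference (log2, limma over all 45101 probe sets) of the 18 probe sets with 95% confidence intervals. Diamonds are each gene's brightest probe set and circles the others. The Wnt11 interval, 0.15 to 0.49, is the only called one (red), and the intervals of 4 Wnt5a probe sets all include 0.

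Among ligands known from embryonic epithelia, Wnt4, Wnt6, Wnt10a, Wnt9b and Wnt3 had no call. Wnt4 read 9.2, 9.3, 9.2, 8.9 and 9.0 in mutants and 9.4, 9.3, 9.0, 8.9 and 9.0 in controls on 1450782_at. Its group means were both 9.12, and the difference of 0.00 had a 95% interval of -0.24 to 0.24. The second probe set, 1441687_at, read 8.1 to 8.5 in mutants and 8.1 to 8.8 in controls, with control replicate 1 again the highest (difference -0.02).

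Wnt6, which the ectoderm of many organs expresses, was also highest in control replicate 1. On 1419708_at it read 7.0, 7.0, 6.8, 7.0 and 6.9 in mutants and 7.5, 7.1, 7.0, 7.0 and 6.9 in controls, so 4 controls lay within 0.1 of the mutant range and control replicate 1 lay above it. The difference was -0.16 (SE 0.10, 95% interval -0.38 to 0.06, limma adjusted p = 0.361 over genes), and -0.06 without control replicate 1. On 1435980_x_at it read 5.1, 5.3, 4.9, 4.9 and 5.3 in mutants and 5.9, 5.2, 5.4, 5.3 and 5.3 in controls, a difference of -0.32 (limma adjusted p = 0.226 over probe sets), or -0.20 without control replicate 1.

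Wnt10a, whose human counterpart is mutated in missing teeth, lies next to Wnt6 in the genome. It read 7.7, 7.8, 7.7, 7.7 and 7.5 in mutants and 7.8, 7.7, 7.3, 7.7 and 7.7 in controls. Control replicate 3 was the lowest array and the difference was 0.04 (SE 0.09, 95% interval -0.16 to 0.24, limma adjusted p = 0.830). Without control replicate 3 the difference was -0.05.

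Wnt9b, a ligand of the facial ectoderm required for lip and palate closure, read 5.7, 5.6, 5.8, 6.0 and 5.7 in mutants and 5.6, 5.6, 5.4, 5.6 and 5.7 in controls on 1443197_at. The ranges overlapped between 5.6 and 5.7, and the difference was 0.18 (SE 0.08, 95% interval 0.00 to 0.36, limma adjusted p = 0.198 over genes). The dimmer 1451711_at read 4.2 to 4.5 in mutants and 4.0 to 4.4 in controls (difference 0.08). Wnt3, its genomic neighbour, was near the low end of the arrays at 2.9 to 3.1 in mutants and 2.8 to 3.2 in controls, dimmer than all but 2.69% of probe sets. Its difference of 0.04 (95% interval -0.14 to 0.22) was measured at that low signal.

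**Figure D3:**
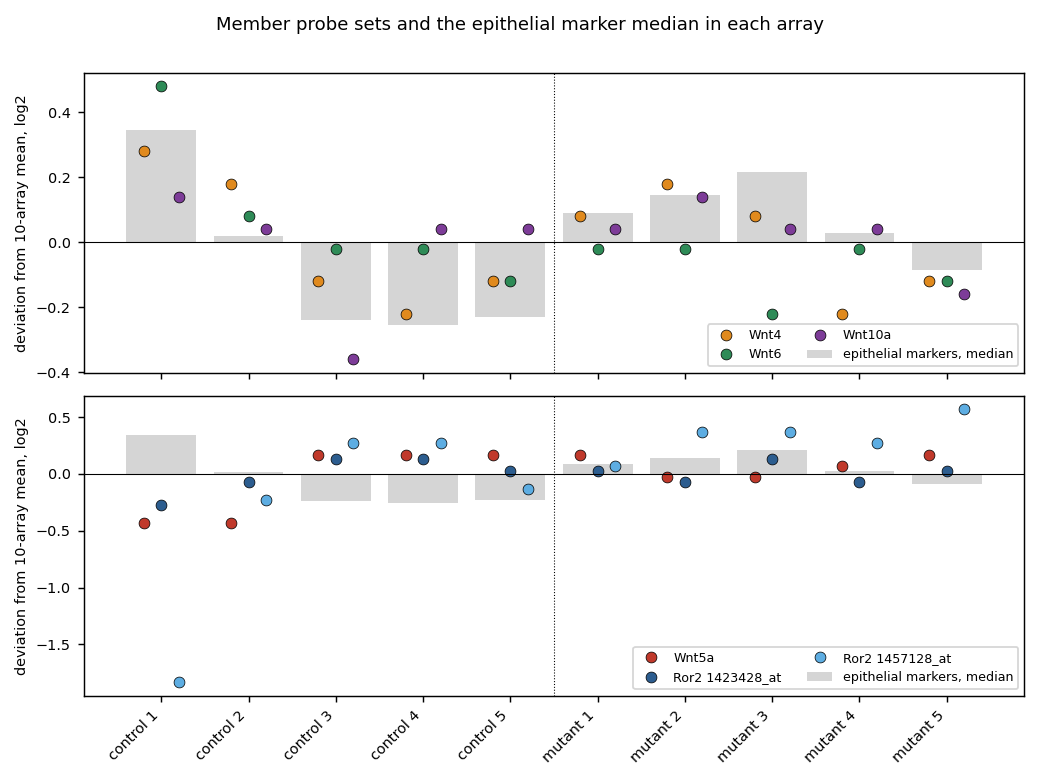
Deviation of selected probe sets from their own mean over 10 arrays (points, log2), beside the median deviation of 12 epithelial markers (grey bars), for each array. In control replicate 1 the epithelial median was 0.35, Wnt4 and Wnt6 were at their highest, and Wnt5a and both Ror2 probe sets were low.

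The epithelial marker median differed between arrays, and its correlation with the Wnt values was not tested. The median was 0.35 in control replicate 1, 0.02 in control replicate 2 and -0.26 to -0.23 in control replicates 3 to 5. Among mutants it lay from -0.09 to 0.22. The summed level of the 12 markers, as a log2 value, ranged from 14.3 to 14.6 in mutants and from 14.0 to 14.6 in controls, and the dimmest of them, Cldn4, read at least 8.3 in every array. In the same control replicate 1 Wnt4 and Wnt6 had their highest values, and the mesenchymal marker median was -0.35, against -0.05 to 0.08 in the other controls. With the epithelial median as a covariate, 4 of the 10 genes were called by limma, against 18.1% of all genes in the same fit. These were Wnt11 (0.30, adjusted p = 0.0249) and Wnt5a (0.30, adjusted p = 0.0302) upward, and Wnt5b (-0.29, adjusted p = 0.0438) and Wnt6 (-0.26, adjusted p = 0.0415) downward. The Wnt5a call was that of its brightest probe set only. In the same fit its other probe sets, from brighter to dimmer, changed by -0.22, 0.09 and 0.15. None of these was called (limma adjusted p = 0.357, 0.590 and 0.484 over probe sets). The second Ror2 probe set was then higher by 1.08 (limma adjusted p = 0.00669 over probe sets). Its lowest value, 6.4, was in control replicate 1, the array with the highest epithelial median. The brightest Ror2 probe set changed by 0.09 in the same fit and was not called (limma adjusted p = 0.431 over probe sets). Skeletal muscle markers, which fell, had summed log2 levels of 9.37 to 11.8 in mutants and 11.4 to 13.3 in controls. With their median as a covariate 1 gene of the whole table was called, so that fit says nothing about single Wnt genes, and the part of muscle cells in the values was not tested otherwise.

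Whether close relatives or partners moved differently was tested on the log2 difference between 2 genes within each array, by an exact two-sided permutation test over the 10 arrays, for 6 pairs. The smallest p that 5 against 5 arrays can give is 0.00794. Wnt9b minus Wnt9a was -1.4 to -1.0 in mutants and -1.8 to -1.5 in controls, with no overlap. The change of 0.48 (95% interval 0.29 to 0.67, higher in 5 of 5 mutants, exact p = 0.00794, adjusted p = 0.0476 over 6 pairs) joined a difference of 0.18 in Wnt9b to a fall of Wnt9a, the nearest relative, which has roles in joints and cartilage. Wnt9a read 6.9 to 7.0 in mutants and 7.2 to 7.3 in controls, and fell by 0.30 (SE 0.05, limma adjusted p = 0.00846 over genes), although its dimmer probe set changed by -0.04 and the call was lost with the mean of its probe sets (-0.17, adjusted p = 0.118). With the mean of all probe sets the pair changed by 0.30 (adjusted p = 0.0476), and without control replicate 1 it gave an exact permutation p of 0.0159, adjusted p = 0.0714.

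Wnt5a minus Wnt5b also differed between genotypes. It was 3.1 to 3.4 in mutants and 2.4 to 3.1 in controls, where replicates 1 and 2 were lowest at 2.4 and 2.5. The change was 0.46 (95% interval 0.10 to 0.82, above the control mean in 5 of 5 mutants, exact permutation p = 0.0159, adjusted p = 0.0476). With the mean of all probe sets it was 0.27 (exact permutation p = 0.0952, adjusted p = 0.190), and the adjusted p was 0.167, 0.0714, 0.167 and 0.0714 without mutant replicates 1 to 4 in turn and 0.0714 without control replicate 1.

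The other 4 pairs did not pass. Ror2 minus its relative Ror1 changed by 0.00 (95% interval -0.16 to 0.16, exact permutation p = 1), Wnt10a minus Wnt10b by -0.04 (-0.22 to 0.14, p = 0.810) and Wnt3 minus Wnt3a by 0.06 (-0.18 to 0.30, p = 0.706). Wnt5a minus its receptor Ror2 changed by 0.12 (-0.13 to 0.37, exact permutation p = 0.373). With the mean of all probe sets that last value turned to -0.36 (adjusted p = 0.0476), a mean that includes the Ror2 probe set that was low in control replicate 1.

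**Figure D4:**
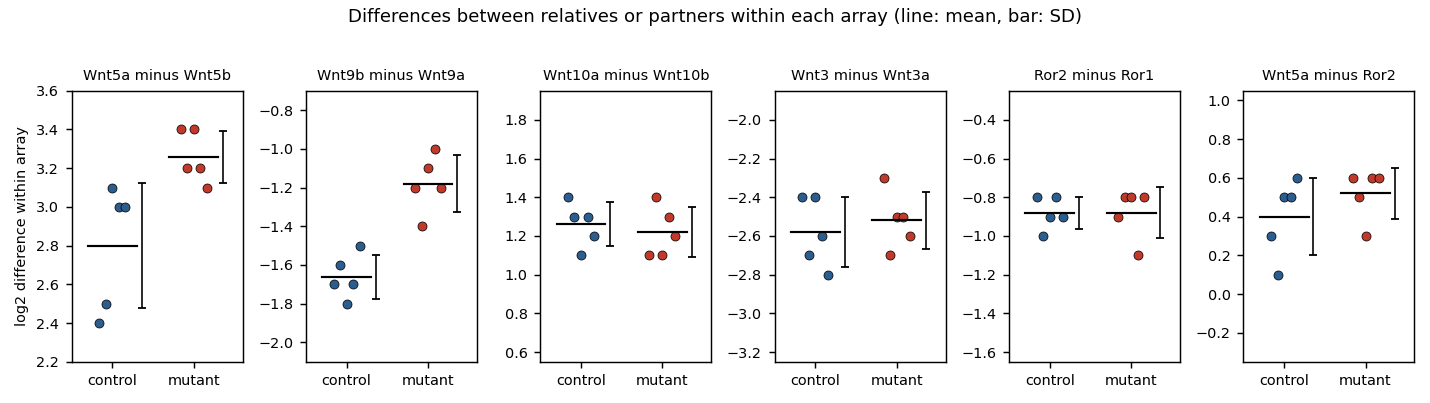
Log2 difference between 2 genes within each array, for the 6 pairs tested, in 5 control (blue) and 5 mutant (red) arrays with mean (line) and SD (bar). Wnt9b minus Wnt9a lies at -1.8 to -1.5 in controls and -1.4 to -1.0 in mutants, and Ror2 minus Ror1 averages -0.88 in both groups.

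The rest of the Wnt pathway was described from 8 lists by role, holding 85 genes of which 83 were measured. In all 4 were higher, 4 lower and 75 not called, or 9.64% called against 8.26% of all genes, with a median change of 0.00 in both. The groups did not overlap for Wnt9a, Rspo3, Dkk2 and Notum among these, as for 6.75% of all genes. Across all 19 Wnt ligand genes, Wnt11 and Wnt7a were higher and Wnt5b and Wnt9a lower, 15 were not called and the median change was 0.08. Wnt7a, a ligand of dorsal limb ectoderm, read 7.4 to 7.6 in mutants and 7.2 to 7.4 in controls (0.24, SE 0.06, limma adjusted p = 0.0379). That call was lost without each of 7 arrays, namely mutant replicates 1 to 4 and control replicates 2 to 4 (adjusted p up to 0.0878), and the mean of the 3 Wnt7a probe sets changed by 0.07 (adjusted p = 0.475).

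Ligand secretion and reception showed 1 call, that of Lrp5. Porcn and Wls, which acylate and carry Wnt proteins to the surface, changed by 0.04 and -0.08. Of 12 Frizzled and Lrp receptors, Lrp5, a coreceptor for beta-catenin signalling, was lower, at 5.2 to 6.0 in mutants and 5.8 to 6.8 in controls (-0.90, SE 0.21, limma adjusted p = 0.0241), and 11 were not called. The Lrp5 call was lost without mutant replicates 2, 3 or 4 or control replicate 3 (adjusted p = 0.0509, 0.0641, 0.0543 and 0.0603) and with Eif2s3y as a covariate (0.0864). None of 15 genes of the polarity and Ror branch, which carries Wnt5a, Wnt11 and Ror2 signals, was called, against 8.26% of all genes, and their median change was 0.02.

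Among regulators outside the cell, 3 of 14 measured antagonists were higher, none lower and 11 not called (median 0.07), where 2.90% of all genes were higher and 8.26% were called in either direction. By sign alone, 8 of the 14 changed upward and 6 downward. The antagonist Sostdc1 changed by -0.54 and narrowly missed the threshold (limma adjusted p = 0.0504). It was called lower under 5 of the alternatives. Dkk2, an inhibitor that binds Lrp receptors, read 9.7 to 10 in mutants and 9.1 to 9.3 in controls (0.72, SE 0.07, limma adjusted p = 0.000806). Sfrp4, which binds Wnt proteins, and Notum, which removes their lipid, were higher by 0.40 and 0.30 (adjusted p = 0.0216 and 0.0189). The Sfrp4 call was lost without mutant replicates 1 or 3 (0.0544 and 0.0509) and that of Notum without mutant replicate 3 (0.0509). Of 9 R-spondins and their receptors, Rspo3, which enhances Wnt signalling, fell by 0.30 (SE 0.06, adjusted p = 0.0135), from 9.2 to 9.3 in controls to 8.8 to 9.0 in mutants, though its dimmer probe set changed by -0.02. The Rspo3 call was lost with the mean of its probe sets (-0.16, adjusted p = 0.184) and with Eif2s3y as a covariate (-0.27, adjusted p = 0.0503).

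Inside the cell, Lef1, a partner of beta-catenin, fell by 0.52 (SE 0.11, limma adjusted p = 0.0168), the 1 call among 12 measured intracellular and nuclear genes. It read 7.0 to 7.2 in mutants and 7.2 to 7.8 in controls. The share called in that list was 8.33%, beside 8.26% of all genes. None of 9 target genes was called, a list too short to set apart from that share. Axin2, a feedback target in most tissues, changed by 0.06 (limma adjusted p = 0.718).

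**Figure D5:**
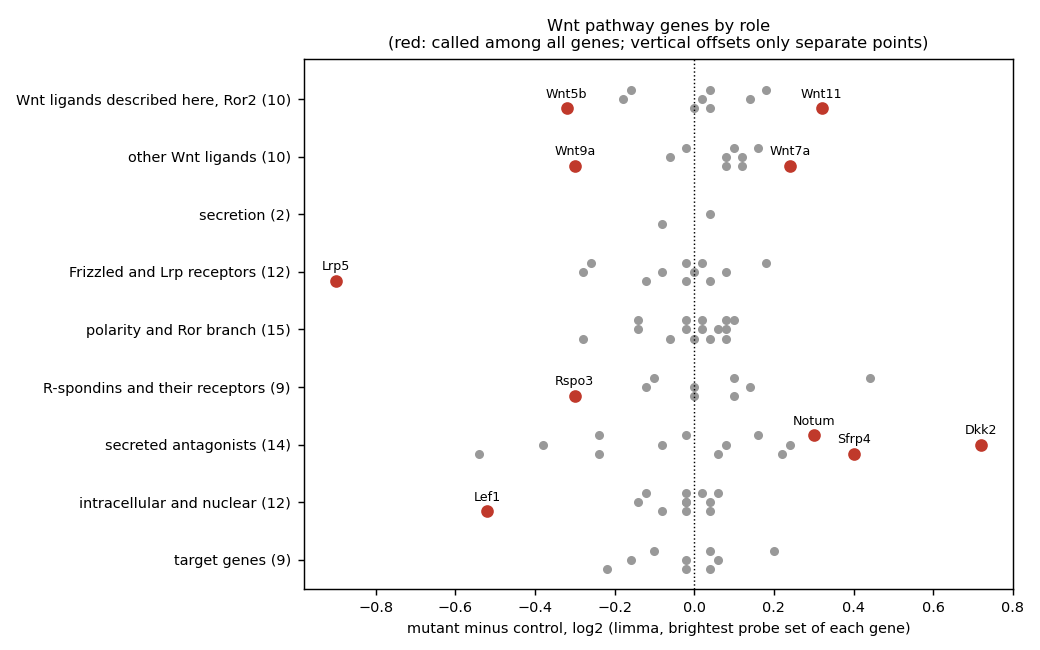
Mutant minus control difference (log2, limma, brightest probe set) of the 10 genes described here and of 83 other Wnt pathway genes, by role, with the number measured in brackets. Red points are called among all 18194 genes and run from Lrp5 at -0.90 to Dkk2 at 0.72.

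The genes whose centred values were closest to those of the 2 called ligands were found by the mean absolute difference over the 10 arrays. For Wnt11 these were Bphl, Tbx19 and Atp2b2, at mean differences of 0.042, 0.048 and 0.054 on the log2 scale, and 4 genes were as close as the last of these. For Wnt5b they were the transcript 4930579G24Rik, Tmpo and Trp53rka, at 0.040, 0.040 and 0.056. The values carry steps of 0.1, so these distances lie below the rounding.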

How the data were processed

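The data were 10 Affymetrix arrays of mouse secondary palate, 5 mutant and 5 control, grouped by the sample titles. The deposited log2 values had been made by the authors with RMA, per the submitters' processing notes. No source used here states its version or any batch. Rounding to 1 decimal limits small differences, and the number of arrays limits the precision.

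Of 45101 probe sets, 34958 carried 1 gene symbol, 932 several and 9211 none. For each of 18194 genes the probe set with the highest mean over 10 arrays was kept. Group differences were fitted with limma 3.58.1 under R 4.3.3 (lmFit, eBayes, two-sided, no filter or covariate), with Benjamini-Hochberg adjustment over all genes, or over all probe sets, and a threshold of 0.05. Errors are SDs over arrays or standard errors of the fit, and intervals are at 95%. The fits were tested on simulated data with 50 changed features at each size. At a 1.2-fold change 10 of 50 genes and 2 of 50 probe sets were recovered. At a 1.5-fold change 43 of 50 genes and 33 of 50 probe sets were. The simulated noise was normal and independent between features, without array effects. Far fewer features were changed than the 1503 genes called in the data, so these rates need not carry over. Intervals of pair differences use the pooled SD.

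The genes and lists were chosen with earlier results of these data known. Named are all 10 genes with every probe set, up to 3 called genes from each pathway list, the second gene of each pair, and the 3 genes closest to each called ligand. Porcn, Wls, Axin2, Wnt1, Tgfbr2 and the markers named are outside this rule and were chosen for their roles. Sostdc1 is also outside it and is named because it came close to the threshold. Kremen2 and Tcf7 were not analysed here. Promoters come from RefSeq (GRCm38.p6). Alternatives were other gene summaries, filters, variance models, normalizations, weights, covariates, a replicate block, rounding noise and each array left out.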

Additional observations from a re-analysis of the deposited data

Results flagged for a closer look

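In 7 of 86 groups of 5 arrays that were checked, the highest or lowest array lay apart from the other 4 by more than 0.71 of the group's range (Dixon's limit at 95%). That limit marks about 1 group in 20 where values are independent and normally distributed. The values here are rounded with ties and some groups share genes, so the count cannot be set against that rate. Control replicate 1 was the highest array for the second Wnt6 probe set (5.9, others 5.2 to 5.4) and the lowest for the second Ror2 probe set (6.4, others 8.0 to 8.5) and for the osteoblast marker median (-0.82, others -0.02 to 0.10). Control replicate 3 was the lowest for the dimmer Wnt9b probe set (4.0, others 4.3 to 4.4) and for Wnt10a (7.3, others 7.7 to 7.8). Control replicate 2 was the highest for Wnt11 (8.5, others 8.2). Mutant replicate 4 was the lowest for Dkk2 (9.7, others 10), which still lay above all controls. With values in steps of 0.1, several of these gaps are a few steps wide.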

How the results depend on the processing

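Of the 10 genes, 2 were called; the count was 1 among the brighter 60% of genes (which leave out Wnt5b) and with Eif2s3y as a covariate, 4 with the epithelial median, 0 with the muscle median, and 0 to 1 when each array was left out. Of 18 probe sets 1 was called; the count was 2 among the brighter 60% and with array weights, 3 with the epithelial median, 0 with medians centred, with Eif2s3y and with the muscle median, and 0 to 1 with an array left out. Of the pathway genes 8 were called. The count was 5 with Eif2s3y, 0 with the muscle median, and 4 to 10 with an array left out. Over all alternatives that kept every array it ran from 0 to 11. Of the pairs 2 passed, and 0 to 2 with an array left out. The number of called genes in the whole table moved as well. It was 1503 as reported, 643 to 1798 with an array left out, and 1 to 3294 under the other alternatives. The cause of these shifts was not tested, except that the muscle median left 1 call in the whole table. With the mean of all probe sets, Wnt5a minus Ror2 was -0.36. Same-numbered arrays did not deviate together (correlations of deviations from -0.10 to 0.11, 1 of 5 over 0.1). The labels do not say whether the same number marks a litter or day, and these correlations cannot decide it. With a replicate block 0 of the 10 genes, 0 of 18 probe sets, 0 of 6 pairs and 6 pathway genes were called. Wnt11 and Wnt5b then each had a limma adjusted p of 0.0608 over genes. The smallest p of the pair test in that setting is 0.0625. Of the 8 genes without a call, 4 changed sign under at least 1 alternative and 2 were called under 1, both with the epithelial median. Wnt4 could not be counted as changing sign, since its difference was 0.00, but it ran from -0.23 to 0.08 over the alternatives. Wnt11 and Wnt5b kept their direction under all alternatives run. Depth is not defined for arrays; Wnt3 was close to the low end of the signal.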
